A study of Aspergillus nidulans with 4 samples.

Results

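The carbon response of the filamentous fungus Aspergillus nidulans was read from a pair of RNA-seq libraries that shared their nitrogen source, 10 mM ammonium tartrate. In the fructose library the mycelium of strain biA1 had 0.1% fructose as carbon source, and in the glucose library the same strain had 1% glucose. The labels call ammonium a repressing nitrogen source in both, glucose a repressing carbon source and fructose a non-repressing one. All cultures carried biA1, a biotin-requiring allele that serves as the wild type, and grew in minimal medium for 9 to 12 h at 37 °C. Each library was made from the combined RNA of 3 cultures, so there is 1 library per medium and no measured spread between cultures. The kind of sugar and its amount changed together and cannot be told apart. All genes in the sense-strand table of this comparison were taken, which were 7011 of the 7752 genes listed for sense reads in any of the study's comparisons. The fructose and glucose libraries with ammonium are 2 of the 4 libraries of the series, and the other pair, fructose and glucose with urea, serves only for comparison. The labels disagree on how much urea was given, 10 mM by the source names but 5 mM by the protocol.

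As background, glucose represses genes for other carbon sources in this fungus through carbon catabolite repression. The zinc-finger repressor CreA acts at its end, and a ubiquitination and deubiquitination network that includes CreB, CreC, CreD and HulA influences it. When little glucose is present, high-affinity sugar transporters, enzymes of gluconeogenesis and the glyoxylate cycle, and secreted hydrolases are typically derepressed. Ammonium works on a second arm, nitrogen metabolite repression, in which the GATA factor AreA is held back and permeases and enzymes for other nitrogen sources stay low. Genes under both arms, such as those for proline, which serves as carbon and as nitrogen source, are a well-known point of contact.

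Sense counts summed over the listed genes to 545858 in the fructose library and to 2603595 in the glucose library. Where no read was counted, up to 3 are allowed for, which is 5.50 CPM (the count scaled to the library total) in fructose and 1.15 CPM in glucose, so loss from the fructose library was measured less sharply than gain. Ratios are log2 of fructose over glucose after scaling, with a prior count of 1, and the brackets after a ratio hold its 95% counting interval. The intervals cover counting error only and say nothing of the spread between cultures. No test of the media was possible, and "higher" and "lower" describe these libraries. The words are used without a value only for genes at 4-fold or more, which is a log2 ratio of 2. CPM is not corrected for gene length, so levels are compared between libraries and not between genes.

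Fructose went with a long tail of genes that were nearly silent in glucose, and with a shallower, broad reduction of genes for making ribosomes. The abundance minimum, a mean log2 CPM of 3 in the deposited table, left 6647 genes. Of these, 554 were higher in fructose by 4-fold or more, which is 8.33%, and 466 were lower by as much, which is 7.01%. These 2 percentages are the background against which counts in gene groups are read below. The median ratio over all 6647 genes was -0.11. The higher genes took 16.2% of all sense counts in fructose and 1.89% in glucose. The lower genes took 1.81% in fructose and 9.20% in glucose. Glucose counts were 0 for 32 of the higher genes, and fructose counts were 0 for 87 of the lower ones. For 56 of those 87 the loss was too shallow to exceed 4-fold once 3 counts were allowed for. With the whole counting interval required to lie past 4-fold, 349 genes were higher and 72 lower. Among the 1609 genes with a mean log2 CPM of 7 or more, where depth limits less, 82 were higher and 28 lower by that stricter rule. By the 4-fold rule alone the sides were closer. Of 1281 genes at 7 to below 9, 70 were higher and 30 lower. Of 328 genes at 9 or more, 23 were higher and 27 lower. The genes nearest the threshold were AN10363 just inside at 2.00 with 66 against 75 counts, and AN6191 just inside on the other side with 18 against 338 counts. Just outside were AN8461 at 1.99 with 1177 against 1364 counts, and AN7107 with 291 against 5379.

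**Figure D1:**
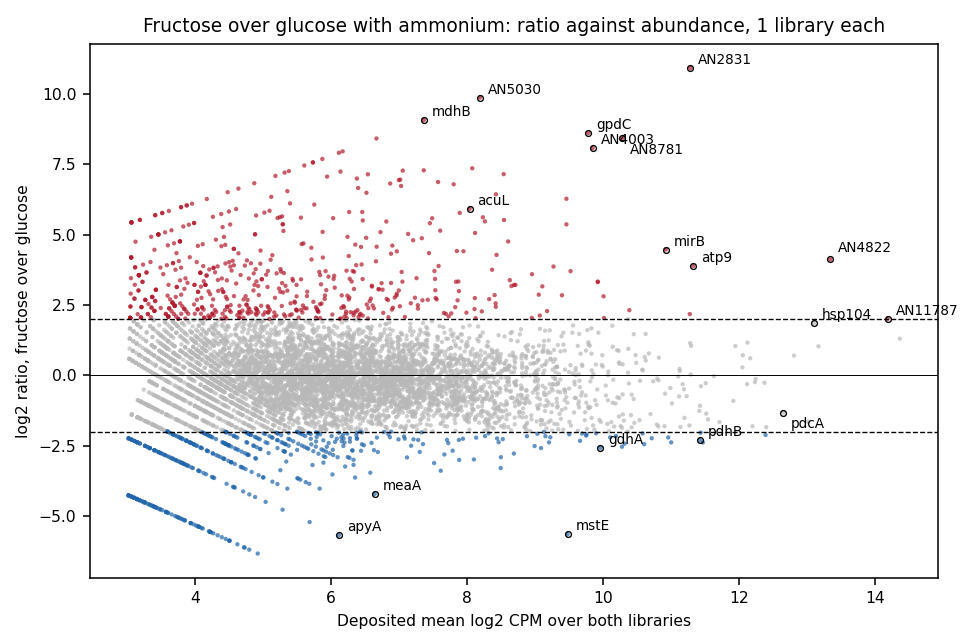
Each point is 1 of the 6647 genes past the abundance minimum, placed by its deposited mean log2 CPM (horizontal) and by the log2 ratio of fructose over glucose (vertical), with dashed lines at 4-fold; red genes are higher and blue genes lower in fructose. AN2831 stands at 10.91 and mstE at -5.64, and the slanted lines of points at lower left are genes with the fewest counts in the shallower fructose library.

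The 10 highest genes, ranked by the lower end of the counting interval, held transporters, dehydrogenases and secondary metabolism genes. AN2831, described only as a predicted membrane transporter, had 2774 counts in fructose and 5 in glucose, a ratio of 10.91 (10.10 to 12.95). It was the highest of all genes by this ranking, at 5082 CPM against 1.92 CPM. AN8781, known only by its orthologs, had 1382 against 17 counts and a ratio of 8.42 (7.87 to 9.34). AN5030, a predicted oxidoreductase, had 332 counts in fructose and 0 in glucose and was at least 512-fold higher. AN8910, a putative polyketide synthase, had 121 against 0 counts and was at least 186-fold higher. AN1553, whose predicted domain relates to fruiting body development, had 85 against 0 counts and was at least 131-fold higher. bglR, a putative beta-glucosidase that would release glucose from plant polysaccharides, had 88 against 0 counts and was at least 136-fold higher. The other 4, gpdC, mdhB, AN4003 and ngn26, are given with their groups below. Together these 10 genes took 1.34% of sense counts in fructose and 0.00211% in glucose.

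Genes of hexose uptake differed in both directions. mstE, the low-affinity glucose transporter, had 15 counts in fructose and 3549 in glucose, a ratio of -5.64 (-6.52 to -4.95). It was therefore 50.0-fold lower in fructose and was the lowest gene of the whole table by the ranking on counting intervals. mstA, a putative sugar transporter, went the other way with 34 against 1 counts and a ratio of 5.91 (4.72 to 12.64). hxtA, a putative high-affinity hexose transporter, had 29 against 33 counts and a ratio of 1.97 (1.25 to 2.79), at the edge of 4-fold. Both sugar kinases had more CPM in glucose without reaching 4-fold. hxkA, the hexokinase that can phosphorylate fructose, had a ratio of -1.34 (-1.60 to -1.09) and glkA, the glucokinase, had 300 against 3125 counts and a ratio of -1.17. Among 16 genes described as sugar transporters, 7 were higher and 1, mstE, was lower, and their median ratio was 1.89. Over the members listed in all 4 sense tables of the series the median was 0.56. AN8400, a sugar transporter described as induced on xylose, had 53 against 1 counts at 6.54 (5.40 to 13.27), and AN4277, with a glucose transporter ortholog, 59 against 9 at 4.69 (3.90 to 6.12). The lactose transporter lacpA had 14 against 4 counts at 3.56 (2.35 to 6.08).

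Of 26 measured regulators of carbon metabolism 4 were higher and 1 was lower, and their median was 0.40. creA, encoding the repressor itself, had 84 counts in fructose and 124 in glucose, which is 154 CPM against 47.6 CPM and a ratio of 1.63 (1.23 to 2.06). Its transcript had the larger share in the medium labelled non-repressing, short of 4-fold. creB, the deubiquitinating enzyme, stood at -0.57 (-2.12 to 0.64) and creC, its WD40 partner, at -0.47 (-1.38 to 0.31) and neither interval excluded 0. The arrestin-like genes were on the low side in fructose. apyA had 1 count against 320, a ratio of -5.68 (-11.42 to -3.62), and its relative creD had 50 against 913, a ratio of -1.97 (-2.42 to -1.57). hulA, the ubiquitin ligase that works with such arrestins, had a ratio of 0.42 (0.19 to 0.64).

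The 4 higher regulators are known for acetate, fatty acid and protease genes. hxkC, an atypical hexokinase without catalytic activity that takes part in the control of extracellular proteases, had 426 against 211 counts, a ratio of 3.21 (2.98 to 3.47). farB, an activator of fatty acid use, had 151 against 123 at 2.49 (2.15 to 2.86), while its partner farA had 19 against 127 at -0.52 (-1.31 to 0.17). facB, the activator of acetate genes, had 217 against 186 at 2.42 (2.14 to 2.72). xprG, an activator of proteases under starvation, had only 14 against 13 counts and a ratio of 2.18 (1.12 to 3.52). Of the activators of gluconeogenesis, acuK stood at 1.46 (1.08 to 1.86) and acuM at -0.84 (-1.63 to -0.17). In the protein kinase A pathway pkaA, a catalytic subunit, had a ratio of -1.72 (-2.52 to -1.05), whereas pkaB had 0.21 (-0.35 to 0.74) and the adenylate cyclase cyaA 0.73 (0.49 to 0.98).

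Most glycolysis genes lay within 4-fold of their glucose level. Of 19 measured members of the list of glycolysis and fermentation genes, 10 lay within 2-fold, 2 were higher and 2 lower, and the median was -0.42. The list took 2.05% of sense counts in fructose and 3.16% in glucose. pfkA, the phosphofructokinase that commits sugar to glycolysis, had 1459 against 8192 counts and a ratio of -0.28 (-0.36 to -0.20). gpdA, the main glyceraldehyde-3-phosphate dehydrogenase, had 1306 against 5441 and a ratio of 0.15 (0.06 to 0.24). pgkA stood at -0.32 (-0.41 to -0.23), acuN, the enolase, at -0.45 (-0.55 to -0.35) and pkiA, the pyruvate kinase, at -0.42 (-0.68 to -0.17). fbaA, the aldolase, was the exception on the high side at 1.02 (0.90 to 1.13), short of 4-fold.

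gpdC, a second putative glyceraldehyde-3-phosphate dehydrogenase gene, had 983 counts in fructose and 10 in glucose, which is 1801 CPM against 3.84 CPM and a ratio of 8.61 (7.94 to 9.89). At the pyruvate branch point the subunits of the pyruvate dehydrogenase complex, which feeds the mitochondrion, had lower shares in fructose. pdhB had 512 against 11700 counts at -2.30 (-2.44 to -2.18), pdhA 216 against 4616 at -2.21 (-2.41 to -2.01) and pdhC 428 against 3962 counts. The first 2 were past 4-fold and pdhC was not. Pyruvate decarboxylase, the fermentative branch, was split as well. pdcA, which was among the genes with the most counts in glucose, had 2035 against 23558 at -1.32 (-1.39 to -1.26), and pdcB had 20 against 21 at 2.06 (1.18 to 3.09).

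**Figure D2:**
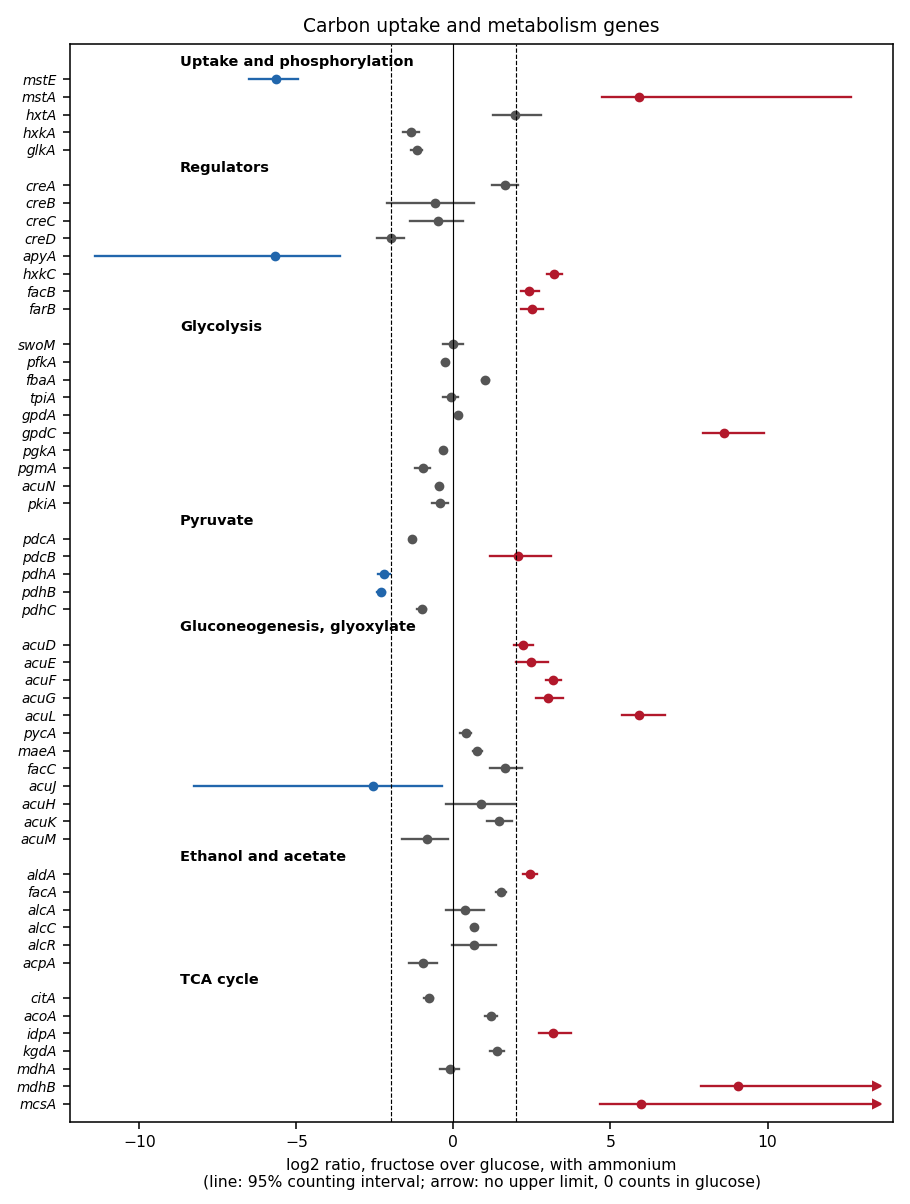
Log2 ratios of fructose over glucose for genes of sugar uptake and carbon metabolism, by role; each dot is 1 gene, its line is the 95% counting interval, with genes past 4-fold in red (higher) or blue (lower). Glycolysis clusters near 0 apart from gpdC at 8.61, pdhA and pdhB lie just past -2, and the 12 genes of gluconeogenesis and the glyoxylate cycle range from acuJ at -2.55 to acuL at 5.91; for the other groups not every member is drawn.

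Gluconeogenesis and the glyoxylate cycle were higher in fructose, with 5 of 12 measured members at 4-fold or more, 1 lower and a median of 1.56. The list took 0.403% of counts in fructose (95% Clopper-Pearson interval 0.387% to 0.420%) and 0.146% in glucose (0.142% to 0.151%). acuD, the isocitrate lyase that opens the glyoxylate cycle, had 189 against 187 counts, 346 CPM against 71.8 CPM, and a ratio of 2.21 (1.92 to 2.52). acuE, the malate synthase that follows it, had 73 against 60 at 2.46 (1.98 to 3.01). acuF, the phosphoenolpyruvate carboxykinase that starts gluconeogenesis, had 408 against 208 at 3.17 (2.94 to 3.43). acuG, the fructose-bisphosphatase that completes it, had 132 against 74 at 3.02 (2.62 to 3.47). acuL, the putative succinate and fumarate carrier of the mitochondrion, had 295 against 21 at 5.91 (5.38 to 6.73). pycA, the pyruvate carboxylase, stood at 0.39 (0.22 to 0.56) and maeA, a malic enzyme, at 0.77 (0.63 to 0.91). Of the carnitine acetyltransferases, facC had 56 against 81 counts at 1.66 (1.16 to 2.19) and acuJ 1 against 35 at -2.55 (-8.26 to -0.35), which rests on a single count.

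The ethanol and acetate genes differed from each other. aldA, the aldehyde dehydrogenase of ethanol use, had 326 counts in fructose and 278 in glucose and a ratio of 2.43 (2.20 to 2.67). facA, the acetyl-CoA synthase, had 563 against 913 at 1.51 (1.36 to 1.66). The ethanol activator alcR stood at 0.67 (-0.04 to 1.36) and alcohol dehydrogenase I, alcA, at 0.38 (-0.23 to 0.97), both with intervals that include 0. alcC, alcohol dehydrogenase III, had 0.65 (0.55 to 0.75) and the acetate permease acpA -0.95 (-1.42 to -0.53). alcB, alcohol dehydrogenase II, was below the abundance minimum with 9 against 2 counts. Of the 8 members past the minimum, 2 were higher and none lower.

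The list of tricarboxylic acid cycle genes had a median of 1.21 over 9 members, 3 of them higher. No gene carried the symbols idhA, idhB, icdA, sdhA, sdhB or fumA, so the list covers only part of the cycle. citA, the mitochondrial citrate synthase, had 482 against 3834 counts at -0.78 (-0.92 to -0.65), and the mitochondrial malate dehydrogenase mdhA stood at -0.11 (-0.42 to 0.18). Also short of 4-fold were acoA, at 2.31-fold higher, kgdA at 2.61-fold, mdhC at 2.03-fold and kgdB at 1.08-fold. The higher members were idpA, mcsA and mdhB. idpA, the NADP-dependent isocitrate dehydrogenase, had 103 against 51 at 3.18 (2.73 to 3.74). mcsA, the methylcitrate synthase that handles propionyl-CoA, had 22 against 0 and was at least 33.9-fold higher. mdhB, another putative malate dehydrogenase, had 191 against 0 and was at least 294-fold higher.

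Genes for the use of tartrate, the counter-ion of ammonium in both media, were higher in fructose in both of 2 members. AN4822, a putative tartrate dehydrogenase, had 10897 counts in fructose and 2904 in glucose. It took 19963 CPM of the fructose library and 1115 CPM of the glucose library, a ratio of 4.12 (4.06 to 4.18), and was among the 3 genes with the most counts in fructose. AN4003, the other putative tartrate dehydrogenase, had 1026 against 16 counts and a ratio of 8.07 (7.51 to 9.02). The tartrate concentration was the same in both libraries. In the libraries with urea as the labelled nitrogen source, AN4822 had 35 counts in fructose and 12 in glucose, while AN4003 was not listed. AN2831, AN5030, mdhB and bglR were likewise not listed with urea, so 5 of the 10 highest genes were missing from that table. Over all higher genes, 55 of 554 were not listed with urea. Every gene in the ammonium table reached at least 10.4 CPM in 1 of its libraries.

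Several of these genes stand next to each other. In the gene order of the RefSeq annotation of assembly ASM1142v1, to which 6664 of the 7011 genes matched by locus tag, 12 runs of at least 3 neighbouring genes were all past 4-fold in 1 direction, 10 of them higher and 2 lower. AN5032, mdhB, AN5030 and AN5029 form 1 of the 2 longest runs, of 4 genes, and together had 598 counts in fructose and 0 in glucose. AN5032 and AN5029 are predicted transporters. The tartrate dehydrogenase AN4822 lies between AN11233, a predicted chitin-binding protein with 424 against 71 counts at 4.76 (4.42 to 5.17), and AN4821, a predicted DNA-binding protein with 98 against 28 at 3.94 (3.40 to 4.68). gpdC is followed by the predicted transporters AN2584, at 2.71 (2.46 to 2.97), and AN2585, with 648 against 204 counts at 3.87 (3.65 to 4.11). The other run of 4 holds mccA, a subunit of the carboxylase of leucine breakdown, at 3.41 (2.76 to 4.29), beside AN4691, a predicted oxidoreductase with 771 against 85 counts at 5.36 (5.07 to 5.73), AN4692 and AN10588. In a lower run amdA, a zinc-finger regulator of the acetamidase gene, had 1 against 108 counts at -4.13 (-9.86 to -2.04), next to AN2271 and AN2272.

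Enzymes of phenylalanine and proline breakdown were higher in fructose. Among 19 measured genes of amino acid and amide use, 7 were higher and 1 lower, with a median of 0.81. In phenylalanine and tyrosine catabolism, hpdA, the 4-hydroxyphenylpyruvate dioxygenase, had 111 against 2 counts at 7.14 (6.12 to 11.07). hmgA, the homogentisate dioxygenase, had 152 against 5 at 6.73 (5.88 to 8.78), and maiA, the isomerase of the next step, had 32 against 0 and was at least 49.3-fold higher. fahA, the last enzyme, was below the abundance minimum with 6 against 10 counts.

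Genes of the proline cluster differed in both directions. prnD, the proline dehydrogenase, had 100 against 2 counts at 6.99 (5.96 to 10.92), and prnC, the next enzyme, had 34 against 9 at 3.90 (3.04 to 5.37). The proline permease prnB went the other way with 6 against 134 counts at -2.21 (-3.74 to -1.11), and the activator prnA had 4 against 77 at -1.97 (-3.97 to -0.64). prnX, the remaining cluster gene, stood at 0.06 (-0.63 to 0.69). The acetamidase amdS, at 0.59 (-0.21 to 1.35), and the amidase gmdA, at 0.81 (-0.26 to 1.84), had intervals that include 0. Among 32 amino acid transporters, 5 were higher and 1, prnB, was lower. AN1659 had 149 against 4 counts at 6.93 (6.04 to 9.32), and agtA, a permease for glutamate and aspartate, 19 against 4 at 3.99 (2.87 to 6.47).

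None of the 10 nitrogen regulators reached 4-fold between these 2 libraries. They ranged from prnA, the proline activator given above, at 3.91-fold lower in fructose, to meaB at 2.83-fold higher. areA had 31 against 162 counts at -0.17 (-0.78 to 0.38), and nmrA, which holds AreA back, had 19 against 105 at -0.25 (-1.05 to 0.46). areB stood at -0.92 (-2.47 to 0.25), tamA at 1.00 (-0.08 to 2.07) and the nitrate activator nirA at 1.30 (0.93 to 1.67). uaY, the purine activator, had 0.67 (0.30 to 1.03), amdR 0.29 (-0.08 to 0.65) and arcA -0.92 (-2.47 to 0.25).

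The main genes of ammonium uptake and of one assimilation route were lower in fructose. meaA, the major ammonium transporter, had 5 counts in fructose and 458 in glucose, a ratio of -4.21 (-5.94 to -3.08), or 18.6-fold lower. gdhA, the NADP-linked glutamate dehydrogenase, had 157 against 4356, which is 288 CPM against 1673 CPM and a ratio of -2.58 (-2.82 to -2.36). The genes of the other route lay near 0. glnA, glutamine synthetase, stood at 0.09 (-0.03 to 0.21) and gltA, glutamate synthase, at 0.01 (-0.12 to 0.13). mepC, another ammonium transporter-like gene, had 0.32 (-0.23 to 0.84), and mepB, the high-affinity transporter, had 6 against 1 counts below the abundance minimum. The nitrate reductase niaD, at -2.08 (-3.81 to -0.89), and nitrite reductase niiA, at -1.60 (-1.85 to -1.36), also had lower shares in fructose, past 4-fold for niaD only.

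Secreted hydrolases were higher in part. Among 19 measured genes of plant polysaccharide breakdown, 7 were higher and 1 lower, and the median was 1.08. abnC, an arabinanase for pectin, had 45 against 2 counts at 5.85 (4.76 to 9.79), faeC, a ferulic acid esterase, 24 against 1 at 5.41 (4.18 to 12.16), and bglL, a beta-glucosidase, 30 against 4 at 4.64 (3.61 to 7.08). The cellulase eglA, the 1 counted as lower, had 0 against 32 counts. It was at least 2.31-fold lower, so its loss need not reach 4-fold. The xylanase activator xlnR stood at 0.38 (-0.15 to 0.88). Among all 78 described glycoside hydrolases, 16 were higher and 4 lower. In the list of proteases and autolysis genes prtA, the alkaline protease, had 194 against 82 counts at 3.43 (3.07 to 3.84). The autolytic chitinase chiB stood at 0.38 (-0.37 to 1.08) and the glucanase engA at 1.11 (0.77 to 1.46). Of 110 genes described as peptidases, secreted or not, 11 were higher and 6 lower, close to the 8.33% and 7.01% of all genes. AN8445, a putative aminopeptidase, had 218 against 7 counts at 6.87 (6.10 to 8.50). AN2366, a trypsin-like protease described as cleaving NmrA, had 307 against 41 at 5.06 (4.64 to 5.62).

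**Figure D3:**
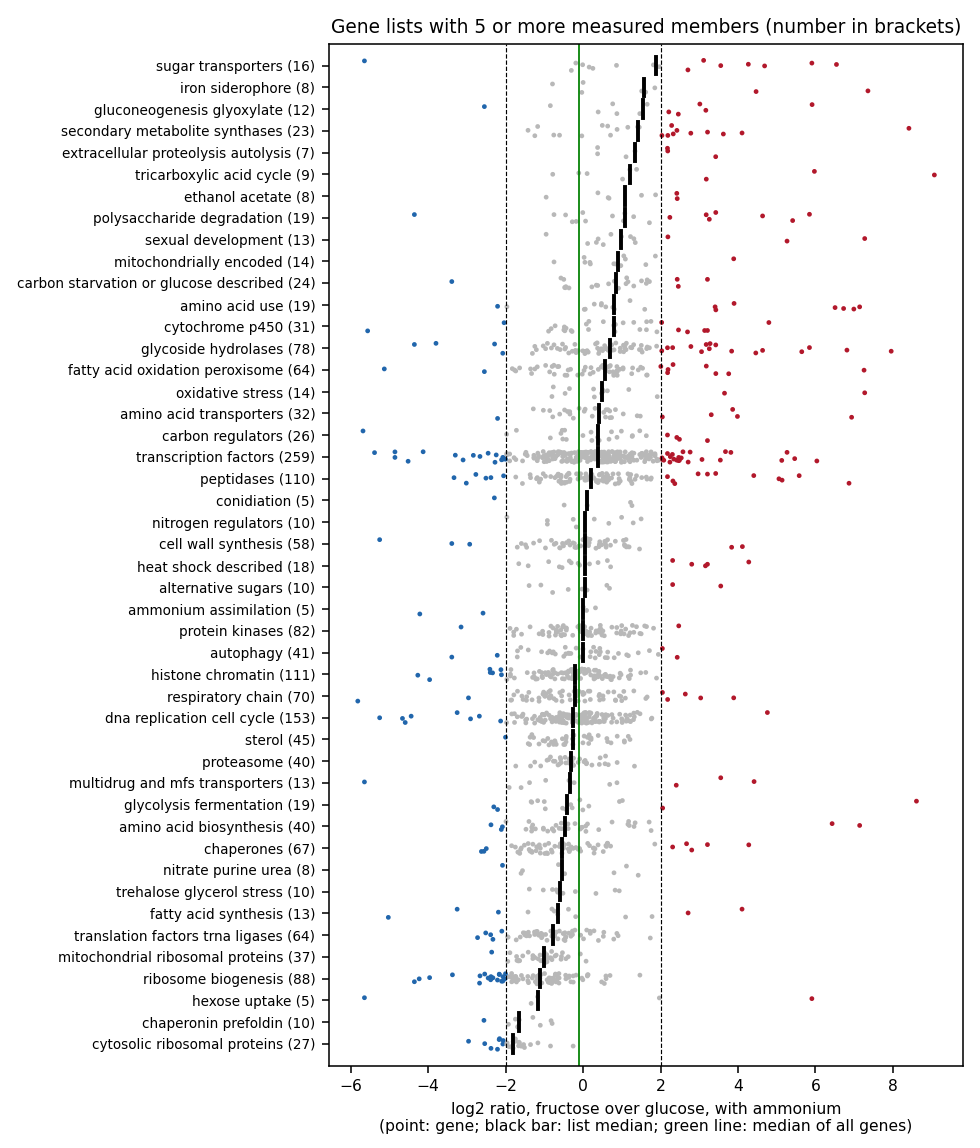
Log2 ratios of fructose over glucose for every gene list with 5 or more measured members, each point a gene, with the list median as a black bar and the median of all 6647 genes, -0.11, as a green line. Sugar transporters have the highest median at 1.89 and cytosolic ribosomal proteins the lowest at -1.81; genes can be in more than 1 list.

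Ribosomal protein genes had lower shares in fructose, by less than 4-fold for most. Of 27 cytosolic ribosomal protein genes, none was higher, 8 were at least 4-fold lower and 25 at least 2-fold lower, where 22.6% of all genes were at least 2-fold lower. Their median was -1.81, and their share of sense counts was 0.831% in fructose (0.807% to 0.855%) and 2.93% in glucose (2.91% to 2.95%). AN1166, a gene with ribosomal protein orthologs, had 201 counts against 5407 at -2.54 (-2.75 to -2.34), and AN4594 had 391 against 8365 at -2.21 (-2.36 to -2.06). Of 37 mitochondrial ribosomal protein genes 19 were at least 2-fold lower and 1 was past 4-fold. Of 88 genes of ribosome biogenesis 19 were lower, none was higher, and the median was -1.12. AN0589, a putative helicase of rRNA processing, had 3 against 159 counts at -3.37 (-5.81 to -1.95). Translation factors and tRNA ligases had a median of -0.78 over 64 genes, with 5 lower and none higher. podG, a phenylalanine tRNA synthetase subunit, had 22 against 681 at -2.72 (-3.43 to -2.13), and AN4015, with translation elongation factor orthologs, 503 against 12156 at -2.39 (-2.52 to -2.26).

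Other groups had medians nearer 0. The proteasome list had a median of -0.32 over 40 genes with none past 4-fold in either direction and protein kinases had 0.00 over 82 genes, with 1 higher and 1 lower. Histone and chromatin genes had 7 lower and none higher of 111. Genes of DNA replication and the cell cycle had 8 lower and 1 higher of 153. In both lists the lower share was below the 7.01% of all genes and the higher share below their 8.33%. The 1 higher cell cycle gene was pclA, a putative cyclin, with 21 against 2 counts at 4.76 (3.57 to 8.74).

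Of 67 chaperone genes 5 were higher and 3 lower, 23 were at least 2-fold lower, and the median was -0.54. Both 4-fold shares were below the 8.33% and 7.01% of all genes. Of 18 genes described as heat shock proteins, a list drawn up after the values were seen, 5 were higher and none lower, with a median of 0.04. Among the higher ones AN7892, a small heat shock protein, had 372 against 87 counts at 4.28 (3.96 to 4.66), hsp30 had 420 against 208 at 3.21 (2.98 to 3.47), and AN5781 had 1004 against 662 at 2.81 (2.67 to 2.95). hsp104, a putative chaperone whose Saccharomyces cerevisiae namesake dissolves protein aggregates, had 7629 against 9763 counts, 13976 CPM against 3750 CPM, and a ratio of 1.85 (1.81 to 1.90). hsp90 stood at -0.13 (-0.19 to -0.07), hsp70 at 0.71 (0.65 to 0.77) and hscA, a putative heat shock protein, at -1.42 (-1.57 to -1.27). The chaperonin and prefoldin genes, which fold tubulin and actin, had a median of -1.67 over 10 members with 8 at least 2-fold lower. The list of chaperonins was also drawn up after the values were seen.

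Respiratory chain genes had a median of -0.21 over 70 members, with 5 higher and 2 lower, shares below the 8.33% and 7.01% of all genes. The 14 genes of the mitochondrial genome, grouped after the values were seen, had a median of 0.89 and ranged from oxiC, a cytochrome oxidase subunit, at -0.75 (-0.85 to -0.65) to atp9. atp9, described as similar to an ATP synthase subunit but apparently not the functional one, had 2677 against 833 counts, 4904 CPM against 320 CPM, and a ratio of 3.89 (3.78 to 4.01). It was the sole mitochondrial gene past 4-fold.

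Siderophore genes, which serve iron uptake, were higher in part. mirB, a siderophore transporter, had 2066 counts in fructose and 430 in glucose, a ratio of 4.47 (4.32 to 4.63). In the libraries with urea its ratio was -2.18, past 4-fold in the opposite direction. ngn26, the ortholog of the Aspergillus fumigatus acetyltransferase sidG, had 306 against 7 at 7.36 (6.60 to 8.99). mirC, at 1.62 (1.21 to 2.04), mirA, at 1.51 (1.17 to 1.87), and the regulator hapX, at 1.85 (0.85 to 3.02), fell short of 4-fold. sidA, the first enzyme of siderophore synthesis, stood at 0.00 (-0.15 to 0.15) and sidC at -0.03 (-0.29 to 0.22). The repressor sreA had -0.79 (-1.65 to -0.05).

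Polyketide and peptide synthases had 10 higher and none lower of 23, with a median of 1.41. Beside AN8910, acvA, the first enzyme of penicillin synthesis, had 44 against 15 counts at 3.62 (2.89 to 4.71). In the sterigmatocystin cluster, a list drawn up after the values were seen, 2 of 4 listed members passed the minimum. These were stcK and stcA, at 17.2-fold and 4.88-fold higher. Below the minimum, stcJ and stcV were 2.69-fold and 1.77-fold higher, short of 4-fold. The minimum is on a mean over both libraries and can be passed through the library where a gene is high. The count is therefore no support for a rise of the cluster. No gene carried several of its symbols, among them aflR. Its member stcK, also the highest of the fatty acid synthesis list, had 43 against 10 counts at 4.11 (3.30 to 5.47). Of 64 genes of fatty acid oxidation and peroxisomes 8 were higher and 2 lower. AN6761, a putative acyl-CoA dehydrogenase, had 54 against 0 counts and was at least 83.2-fold higher. ivdA, which is described as an acyl-CoA dehydrogenase, had 85 against 35 at 3.43 (2.91 to 4.10). Of 259 transcription factors 24 were higher and 16 lower, close to the 8.33% and 7.01% of all genes. nosA, a regulator of sexual development, had 130 against 12 counts at 5.46 (4.79 to 6.64), and rosA, a repressor of it, had 30 against 2 at 5.27 (4.14 to 9.23).

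The labelled material, mycelium, was compared with markers of other stages. Of 10 conidiation markers, wA and ivoB alone were listed, both below the abundance minimum, and their levels summed to 29.3 CPM in fructose and 5.76 CPM in glucose. brlA, abaA and wetA, which define conidiation, were not listed. Of 9 markers of sexual development 7 were listed, summing to 517 CPM against 159 CPM. cpeA, a catalase-peroxidase, had 155 against 3 counts at 7.27 (6.33 to 10.19) and was the one marker of this set past 4-fold. Of 7 markers of autolysing hyphae 6 were listed, summing to 784 CPM in fructose and 184 CPM in glucose, with prtA and xprG among those past 4-fold. prtA is also counted among the secreted enzymes above, and the part of autolysing hyphae in those results was not tested. In bulk RNA, a change in the share of cells of 1 kind and a change per cell cannot be told apart.

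Among the genes that lost most in fructose, after mstE, apyA and meaA, most are known only through orthologs or predicted domains. AN2847, with orthologs that bind RNA and telomeric DNA, had 1 against 231 counts at -5.21 (-10.95 to -3.15). AN10771 had 0 against 131 counts and was at least 9.45-fold lower, AN7305 had 0 against 119 and was at least 8.58-fold lower, and AN2364 had 0 against 113 and was at least 8.15-fold lower. AN9375, a predicted oxidoreductase, had 1 against 170 at -4.78 (-10.51 to -2.70). AN3310, a predicted GPI-anchored surface protein, had 18 against 889 at -3.39 (-4.18 to -2.75). AN4025, a predicted hydrolase, had 36 against 1650 at -3.30 (-3.83 to -2.83).

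By share of the library the 5 largest gains were, in order, AN11787, the tartrate dehydrogenase AN4822, AN5245, hsp104 and AN11489. AN11787 and AN5245 have no description. AN11787 had 30297 CPM in fructose and 7304 CPM in glucose, a ratio of 2.01 (1.98 to 2.04), and AN5245 had 30473 CPM against 11975 CPM, a ratio of 1.30 (1.28 to 1.33). The largest losses were AN8746, a possible pseudogene, at 4038 CPM against 12343 CPM and -1.66 (-1.72 to -1.59), then AN8705 at -2.12 (-2.21 to -2.04), AN1345 at -1.84 (-1.93 to -1.76), pdcA, and AN8870 at -1.81 (-1.90 to -1.72). AN1345 has ribosomal protein orthologs.

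The shares of higher and lower genes varied with how the deposited table describes a gene. Of 209 genes with no description 42 were higher, 20.1%, and 15 were lower, 7.18%. Of 1989 genes described only through properties of their orthologs 50 were higher, 2.51%, and 173 lower, 8.70%. Genes with a predicted domain had 12.4% higher and 6.43% lower.

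The same sugars were also compared with urea as nitrogen source, in 2 libraries that share none with the ammonium pair. Over 6400 genes past the minimum in both tables, the log2 ratios correlated across genes with Pearson 0.567 and Spearman 0.510, as a description, since genes are not independent replicates. Higher genes overlapped more than lower ones. In ammonium 485 of these genes were higher, 7.58%, and in urea 654, 10.2%, and 319 were shared, which is 65.8% of the ammonium list and 48.8% of the urea list. In ammonium 430 were lower, 6.72%, and in urea 1038, 16.2%, and 149 were shared, 34.7% and 14.4% of the lists. Losses with ammonium were measured less sharply, with 72 lower genes against 349 higher ones by the interval rule given above. The part of counting error in the smaller overlap of lower genes was not tested. mstE had a ratio of -5.73 with urea, apyA -7.15, meaA -5.51 and gdhA -3.86, on the same side as with ammonium.

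Medians of several lists were farther apart. The glycolysis list had a median of -0.42 with ammonium and -3.06 with urea, and 15 of its 19 members were at least 4-fold lower with urea against 2 with ammonium. pdcA was at -5.67 with urea and gpdA at -3.21. The cytosolic ribosomal proteins had medians of -1.81 and -4.32. The mitochondrially encoded genes had a median of 0.89 with ammonium and -3.19 with urea, with 13 of 14 lower with urea. Gluconeogenesis and the glyoxylate cycle had medians of 1.56 and 2.04. The genes of amino acid use had medians of 0.81 and 3.59, the ethanol and acetate genes 1.09 and 2.71, and the siderophore genes 1.57 and -0.66. hxtA, at the edge of 4-fold with ammonium, had 1086 against 1 counts with urea at 9.70. gpdC had 34 against 8 counts with urea at 2.70. The differences between nitrogen sources have no test, because each rests on 4 single libraries. By the labels the urea media held no ammonium tartrate, so nitrogen source and tartrate changed together and cannot be told apart.

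**Figure D4:**
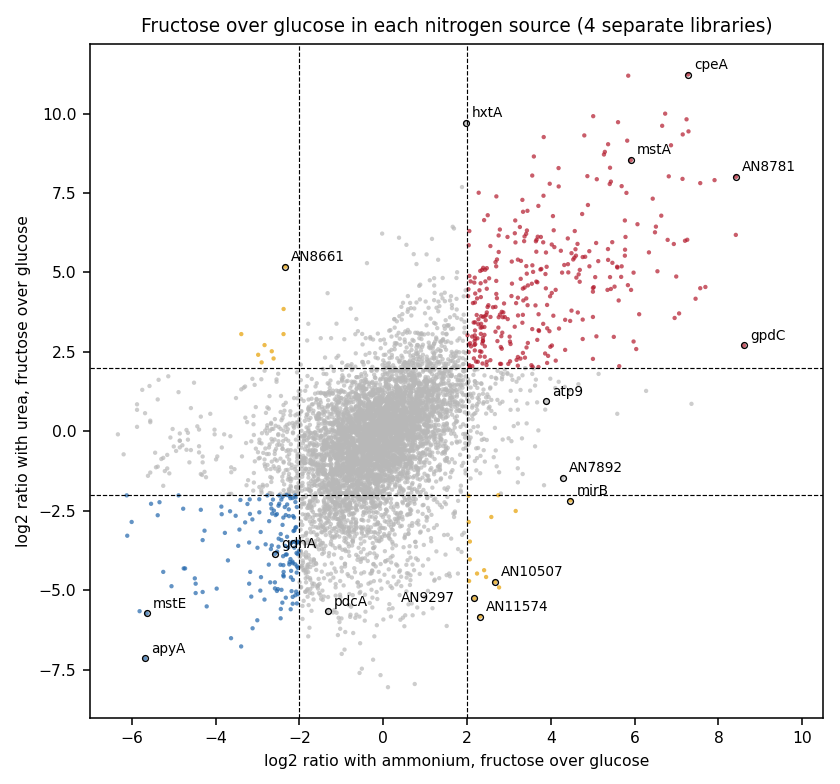
Log2 ratio of fructose over glucose with ammonium (horizontal) and with urea (vertical) for the 6400 genes past the abundance minimum in both tables; red genes are at least 4-fold higher in both, blue lower in both, orange past 4-fold in opposite directions, and dashed lines mark 4-fold. The red quadrant holds 319 genes, the blue one 149, and the orange ones 25 in all.

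Antisense counts were 27.8% of all counts in fructose and 28.9% in glucose. Of 6723 antisense features past the minimum 629 were higher in fructose, 9.36%, and 876 lower, 13.0%. The lower count is uncertain, because 413 of the 876 had 0 counts in fructose and a loss that need not exceed 4-fold. Over 6149 genes measured on both strands, sense and antisense ratios correlated with Pearson 0.610 across genes. Of the 431 of these genes that were higher in sense, 286 were higher in antisense, 66.4%, and of the 421 lower in sense 157 were lower, 37.3%. Whether the antisense counts arose independently of the sense counts was not tested. Of the 5 highest antisense genes, 4 were among the 10 highest of the sense strand. AN2831 had 560 against 0 antisense counts, AN5030 61 against 0, AN8781 464 against 13 and AN4003 192 against 4. AN3130, known by its orthologs, had 112 against 2 antisense and 109 against 4 sense counts. At the low end meaA had 0 against 228 antisense counts, mstE 16 against 1323, AN3310 4 against 508 and AN6426 3 against 410. aciA, a putative formate dehydrogenase, had 10 against 919 antisense and 46 against 1609 sense counts, with ratios of -4.09 and -2.91. gpdC was less uniform, with antisense counts of 243 against 73 at 4.10 beside its sense ratio of 8.61. For AN5245 the antisense counts, 24358 and 39066, exceeded the sense counts, 16634 and 31178.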

How the data were processed

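Per the labels, RNA of 3 cultures was pooled per medium, depleted of rRNA and made into paired-end libraries with the ScriptSeq v2 kit. The authors deposited whole-number read counts per gene, strand and library, together with log2 values (fold change and mean CPM), a p-value and the FDR. Per the submitters' processing notes HTSeq and edgeR were used. For aligner and genome build: not given in the sources used here. Deposited p-values assume a coefficient of variation of 0.3, per the names of the deposited tables, so no p-value is used here. The 16 columns of normalised values were not used.

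Ratios were computed from the counts with TMM scaling (edgeR 4.0.16, R 4.3.3) and a prior count of 1. Over the 3955 genes with 20 or more counts in both libraries they lay within 0.0827 of the log2 fold change in the authors' deposited table. The functions were tested on simulated data. Intervals are exact 95% Clopper-Pearson intervals. A gene at 0 is given as at least N-fold different, against 3 counts in its library. CPM takes the listed genes of 1 strand as total. The abundance minimum was a mean log2 CPM of 3. Reads of amplified libraries are not independent molecules.

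Genes were drawn by rule, and not every gene drawn is printed above. The rule took the 10 highest and 10 lowest by interval, the 5 largest gains and losses in CPM, and up to 4 per list. It also took all members of 8 lists of carbon and nitrogen genes, and the extremes of the antisense and urea comparisons. Other members of the lists, the neighbouring genes and the genes nearest the threshold were named after their values were seen. Of the lists, 4 were added after the values were seen, and 2 wrongly matched genes were dropped by description. The members and lists were chosen with earlier results of these data known.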

Additional observations from a re-analysis of the deposited data

Results flagged for a closer look

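Of the 25 genes past 4-fold in opposite directions in the 2 nitrogen sources, the 5 whose ratios lay farthest apart with the prior count of 1 are given, because the sign of the ratio differed between nitrogen sources. For AN11574 and AN4480, with 0 counts in fructose with urea, the urea ratio and its distance are set by the prior count, and so is the choice of these 2 genes. The differences were not tested. AN11574, which has no description, had 82 counts in fructose and 75 in glucose with ammonium, a ratio of 2.31, and 0 against 71 with urea, a ratio of -5.83, so the ratios differed by 8.14. Against 3 counts it was at least 13.6-fold lower with urea, and the difference at least 6.08. AN4480, also without description, had 124 against 83 with ammonium at 2.76 and 0 against 37 with urea at -4.91, a difference of 7.68. Against 3 counts it was at least 7.11-fold lower with urea, and the difference at least 5.59. AN9297, known by its orthologs, had 2255 against 2306 at 2.18 and 16 against 1113 at -5.26, a difference of 7.44. AN10507, with orthologs that bind unfolded protein, had 115 against 82 at 2.67 and 2 against 126 at -4.75, a difference of 7.42. AN8661 was opposite in sign, with 1 against 30 at -2.34 and 172 against 7 at 5.18, a difference of -7.52, and its ratio with ammonium rests on a single count.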

How the results depend on the processing

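No paired analysis was possible because each medium has 1 library. For the counts of genes, 24 of 30 alternative values lay within 1.5 times. The exceptions were a minimum mean log2 CPM of 5 (275 higher, 184 lower), an interval wholly past 4-fold (349 higher, 72 lower), genes listed in all 4 sense tables (278 higher, with 347 lower, so that lower genes outnumbered higher ones) and, for lower antisense genes, a prior count of 5 (402). The settings on abundance and on listing test fewer genes. Total count scaling and DESeq2 size factors shifted the median of all genes by 0.04. Of 552 alternative list counts 55 moved by over 1.5 times, 25 of them over genes in all 4 tables and 14 with a prior count of 5. Of 276 alternative list medians 274 moved by less than the list's median counting error, and the median for sugar transporters over genes in all 4 tables (0.56) and for conidiation without an abundance minimum (1.23) did not. Medians of autophagy, protein kinases and other sugars, all within 0.05 of 0, changed sign under some settings. Of 992 alternative values of named genes 16 lost 4-fold, 4 gained it, 6 below 4-fold (hsp104, AN5245 and AN11489 under total count scaling and DESeq2 size factors) moved beyond their counting interval, and none reversed. xprG (1.78), pdcB (1.78), acuJ (-1.75) and niaD (-1.83) fell short of 4-fold with a prior count of 5. hxtA (2.01) passed it with total count scaling. For the interval rule and the prior count the cause was not tested. The fructose depth limits losses of low genes most.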

Other observations

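Values for some groups not described above follow. Of 31 cytochrome P450 genes, which oxidise many small molecules, 6 were higher and 2 lower, and CYP548D1 had 166 against 26 counts at 4.80 (4.28 to 5.54), while CYP660A1 had 0 against 76 and was at least 5.48-fold lower. In amino acid synthesis AN5444, a putative tryptophan synthase, had 385 against 19 counts at 6.43 (5.89 to 7.30), and aromA, the multifunctional enzyme of the shikimate pathway, had 14 against 285 at -2.11 (-3.03 to -1.37). Trehalose and glycerol genes had none of 10 past 4-fold, with gfdA, which makes glycerol phosphate, at -1.39 (-1.76 to -1.04). Of the 45 sterol genes measured 1 was lower and none higher. In the pentose phosphate pathway the transaldolase pppA stood at -1.48 (-1.79 to -1.19) and gsdA, the glucose-6-phosphate dehydrogenase, at 0.30 (0.05 to 0.54). gstB, a glutathione transferase, had 15 against 4 counts at 3.65 (2.47 to 6.17).

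AN8223, described as induced by carbon starvation, had 1 against 64 counts with ammonium at -3.39 (-9.12 to -1.26) and a ratio of 3.06 with urea. In the list of genes whose description names carbon starvation or glucose, 3 of 24 were higher and 1, AN8223, was lower.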
